A study of Homo sapiens with 24 samples.

Results

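The comparison is between MV4-11 cells that had been grown with the inhibitor EPZ004777 for 6 days and the same line under the same inhibitor for 4 days, 3 arrays against 3, taken by their sample titles from the 24 arrays of the series. MV4-11 is an established human leukemia line that the labels call biphenotypic B myelomonocytic and that carries the MLL-AF4 gene fusion. EPZ004777 is a small molecule that blocks the histone methyltransferase DOT1L, and it was present at 3 uM in both groups, so nothing in this comparison lacks the inhibitor. All MV4-11 cultures grew in IMDM medium with serum. Other groups used here are 3 treated arrays of day 2 and 3 vehicle arrays (0.1% DMSO, no inhibitor) of each of days 2, 4 and 6, while the 6 arrays of a second line, MOLM-13, entered only the estimate of the spread. Samples are numbered as biological replicates, but nothing in the labels tells their origin or if 1 culture was followed over the days. The p-values rest on the variation within groups, pooled over all 24 arrays and so over both lines. The compared samples are of 1 cell line, and the p-values do not reach beyond them.

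In leukemias with an MLL fusion, part of the gene regulator MLL (KMT2A) is joined to a partner such as AF4, and the fused protein draws DOT1L to its target genes. DOT1L methylates lysine 79 of histone H3 along transcribed genes, a mark that fades slowly after inhibition because it is lost mostly as cells divide. Fusion targets such as MEIS1, PBX3 and MEF2C are known for keeping myeloid progenitors immature and dividing. The step from day 4 to day 6 therefore asks what still changed late, when the inhibitor had already acted for days.

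Values are log2 intensities, on which a difference of 1 is a 2-fold change, and 2.19 is the lowest value on all 24 arrays, so a gene at that value has no measurable level. Changes are given as day 6 minus day 4 with the standard error of a limma model of 10971 genes, and a gene is said to rise or fall when its p-value, adjusted over all those genes, was under 0.05. Day 6 replicate 3 stands apart. Its control probe sets for ACTB and GAPDH read 1.91 higher at the 3' end than at the 5' end of the message, against 0.826 and 0.861 on the other treated day 6 arrays and 0.590 to 0.668 on those of day 4, and its mean correlation with its own group was 0.989, against 0.993 and 0.994. The median SD of a gene over the 3 day 6 arrays was 0.133, and it was 0.049 without that array and 0.074 on day 4. The gap was therefore wider on every treated day 6 array than on any of day 4, and its part in the results was not tested beyond the fits that leave the array out or take the gap as a covariate. In the vehicle arrays the gap moved the other way, from 0.695 to 0.817 on day 4 to 0.567 to 0.583 on day 6.

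From day 4 to day 6 under the inhibitor, 1541 genes rose and 1085 fell, which is 14% and 9.89% of those tested (23.9% in either direction). Changes of at least 2-fold were made by 105 rising and 45 falling genes. These counts were 59 and 41 with a filter on level at 6 (log2) and 59 and 37 with each gene's probe sets averaged. They were 93 and 70 after another quantile normalization and 99 and 30 without day 6 replicate 3. Among the gene lists, members of cell division, p53 target and MLL-fusion target lists fell, and members of the MHC class II, neutrophil, lysosome and antioxidant lists rose. Of 23 Fc, Siglec, LILR and lectin receptors 10 rose and 3 fell, and of 18 sterol synthesis genes 6 fell and 1 rose. The iron and heme list, with 5 rises among 19, was nearer the share of all genes. Counts are given for each list in its place, to be read beside the shares of 14% and 9.89%. In bulk RNA, fewer cells of a type and less RNA per cell cannot be told apart. Without day 6 replicate 3 the counts were 1035 higher and 734 lower (9.43% and 6.69%), and 1527 genes were called with the same sign with and without it. A stricter set of 415 rising and 222 falling genes (3.78% and 2.02%) was called in 4 fits: all arrays, without that array, with the 3' to 5' gap as a covariate, and with only these 6 arrays. The last of these fits alone called 588 genes higher and 273 lower, of 10971. The 3 and 3 arrays of 4285 genes (39.1%) did not overlap, 2498 of them higher and 1787 lower on day 6. The excess of rises depends on the scaling: 58.7% of the called genes were higher, against 46.3% after another quantile normalization, 44.5% with a common median and 44.6% with each gene's probe sets averaged. The median gene moved by 0.03.

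Part of the MLL-fusion target genes fell in the late step, MEIS1 among them. Of 25 listed MLL-fusion target genes, 15 were tested, 7 fell and 0 rose (median -0.11 over the 15), where 9.89% of all genes fell. The step from day 2 to day 4 had 3 falls and 2 rises (median 0.03), when 20% of all genes fell. MEIS1, a homeobox transcription factor that works with HOX proteins in leukemia, read 11.01, 11.13 and 10.99 on the day 4 arrays and 10.25, 10.41 and 10.30 on the day 6 arrays. All day 6 arrays lay below all day 4 arrays, and the change was -0.72 ± 0.08 (adjusted p = 6.09e-06). From day 2 to day 4 it had been -0.04 ± 0.08, so the late step was lower than the early one by 0.68 ± 0.14 (adjusted p = 0.00396 for the difference of the steps). In vehicle cultures the change of MEIS1 between the same days was -0.16 ± 0.08 (adjusted p = 0.197).

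MEF2C, a MADS-box transcription factor of early lymphoid and myeloid progenitors, fell in both steps. Its values were 10.66, 10.62 and 10.59 on the day 4 arrays and 9.99, 9.95 and 9.97 on the day 6 arrays, a change of -0.66 ± 0.06 (adjusted p = 3.52e-07) after -0.51 ± 0.06 in the step before. PBX3, a partner of HOX and MEIS proteins on DNA, read 10.18, 10.46 and 10.38 on the day 4 arrays and 9.80, 9.90 and 9.88 on the day 6 arrays. It fell by 0.48 ± 0.07 (adjusted p = 7.81e-05), and its groups did not overlap either. The receptor tyrosine kinase FLT3, which carries an activating duplication in many myeloid leukemias and drives their growth, read 11.56, 11.57 and 11.57 on the day 4 arrays and 11.28, 11.20 and 10.90 on the day 6 arrays. Its change was -0.44 ± 0.09 (adjusted p = 0.00162), the lowest value was that of replicate 3, and without that array it was -0.33 (adjusted p = 0.00956). With only the 6 arrays of the comparison fitted, FLT3 was no longer called (adjusted p = 0.0623). LMO2, an adaptor of blood stem cell transcription factors, and CDK6, a cyclin D kinase, moved little, by -0.22 and -0.17, and both lost their calls without replicate 3 (adjusted p = 0.109 and 0.137). The mean of all probe sets gave -0.99 for MEF2C and -0.64 for CDK6. With only the 6 arrays the list had 3 falls, and MEIS1, MEF2C and PBX3 were called in all 4 fits. Of the members not tested, PROM1 and EYA1 were at 2.19 on all 6 arrays, and the other 8 were not analysed here.

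**Figure D1:**
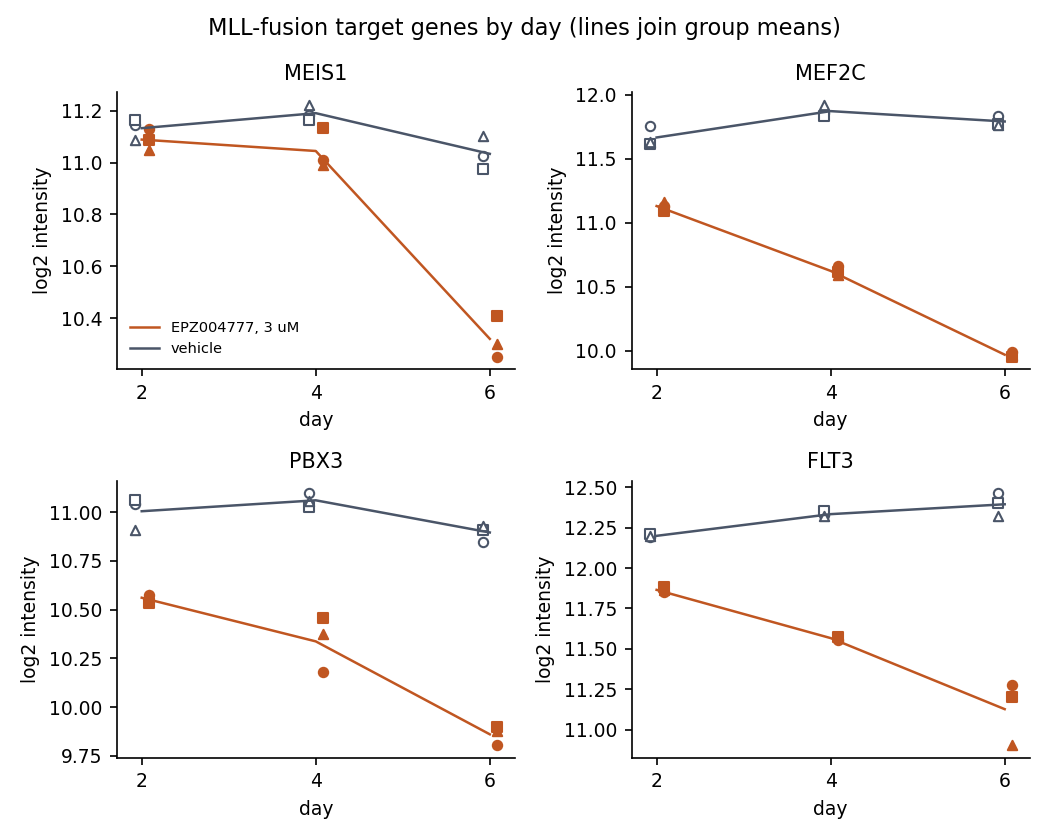
Log2 intensity of MEIS1, MEF2C, PBX3 and FLT3 by day; filled orange symbols are cultures with 3 uM EPZ004777, open grey symbols are vehicle, circles, squares and triangles are replicates 1, 2 and 3, and lines join group means. MEIS1 under the inhibitor averaged 11.09 on day 2 and 11.04 on day 4 and was lower on all 3 treated arrays of day 6, the other genes fell in both steps, and the y axes differ and do not start at 0.

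SOCS2 and MYC also turned down in the late step. SOCS2, an inhibitor of cytokine signaling whose transcription STAT5 drives, read 11.01, 10.93 and 11.01 on the day 4 arrays and 10.49, 10.59 and 10.52 on the day 6 arrays, a change of -0.45 ± 0.05 (adjusted p = 2.76e-06) against 0.09 ± 0.05 in the step before. The late step was lower than the early one by 0.54 ± 0.08 (adjusted p = 0.000322). MYC, the growth-promoting transcription factor, read 13.58, 13.61 and 13.55 on the day 4 arrays and 13.26, 13.24 and 12.58 on the day 6 arrays. All 3 day 6 arrays were below those of day 4, with replicate 3 far below the others, so the change of -0.55 ± 0.12 (adjusted p = 0.00218; -0.63 ± 0.20 against the step before, adjusted p = 0.0433) came to -0.33 without it (adjusted p = 0.00131) and was not called with only these 6 arrays (adjusted p = 0.137). Of 23 tested MYC and ribosome biogenesis genes, 3 fell and 0 rose (median 0.00), against 16 falls in the step before. STAT5 output genes went both ways, with 3 rises and 2 falls among 12.

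Mitosis genes formed the list with the most falls. Of 40 mitosis and spindle genes, all tested, 31 fell and 0 rose, where 9.89% of all genes fell, with a median of -0.36 against 0.03 for all genes. MKI67, the proliferation antigen Ki-67, read 10.51, 10.64 and 10.60 on the day 4 arrays and 9.99, 9.91 and 9.71 on the day 6 arrays. CDCA8, a subunit of the chromosomal passenger complex that corrects spindle attachment, read 9.66, 9.69 and 9.75 on the day 4 arrays and 9.18, 9.07 and 8.84 on the day 6 arrays, and ESPL1, the separase that cuts cohesin at anaphase, read 9.30, 9.30 and 9.22 on the day 4 arrays and 8.80, 8.67 and 8.84 on the day 6 arrays. In each of these genes every day 6 array was below every day 4 array. The changes were -0.72 ± 0.07 (adjusted p = 1.34e-06), -0.67 ± 0.07 (adjusted p = 4.25e-06) and -0.50 ± 0.06 (adjusted p = 7.11e-06). UBE2C, the ubiquitin-conjugating enzyme of the anaphase-promoting complex, fell by 0.61 ± 0.07. MKI67 was at -0.44 with its probe sets averaged. Vehicle cultures gave 0.01, 0.24 and 0.18 for the first 3 genes over the same days. The count of falls was 29 without day 6 replicate 3 and 27 to 31 over the fits that leave out 1 array, 18 with only these 6 arrays, and 15 genes fell in all 4 fits.

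The promoters of MKI67, CDCA8 and ESPL1 are shown, whose adjusted p-values were the lowest among the mitosis genes named above. These 3 members also fell in all 4 fits and hold both motifs known from mitosis genes. The motifs are the CCAAT box, which NF-Y binds, and the cell cycle homology region, which the DREAM and MuvB complexes bind. Each line gives the 250 bases before the RefSeq start of the gene in GRCh38.p14, 5′ to 3′ on the gene's strand: MKI67 at chr10:128126424-128126673 on the minus strand, CDCA8 at chr1:37692266-37692515 and ESPL1 at chr12:53268049-53268298 on the plus strand. Capitals mark the motifs, where ATTGG is the CCAAT box on the other strand.
MKI67: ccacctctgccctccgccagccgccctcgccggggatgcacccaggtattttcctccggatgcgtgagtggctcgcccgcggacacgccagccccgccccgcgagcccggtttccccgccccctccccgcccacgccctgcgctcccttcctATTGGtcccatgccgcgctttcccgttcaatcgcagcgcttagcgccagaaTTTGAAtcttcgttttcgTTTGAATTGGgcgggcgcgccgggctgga
CDCA8: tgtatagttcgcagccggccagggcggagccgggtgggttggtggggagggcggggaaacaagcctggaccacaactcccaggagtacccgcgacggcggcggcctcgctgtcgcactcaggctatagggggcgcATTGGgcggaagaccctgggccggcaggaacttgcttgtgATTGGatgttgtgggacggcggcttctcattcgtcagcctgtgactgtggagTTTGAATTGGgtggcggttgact
ESPL1: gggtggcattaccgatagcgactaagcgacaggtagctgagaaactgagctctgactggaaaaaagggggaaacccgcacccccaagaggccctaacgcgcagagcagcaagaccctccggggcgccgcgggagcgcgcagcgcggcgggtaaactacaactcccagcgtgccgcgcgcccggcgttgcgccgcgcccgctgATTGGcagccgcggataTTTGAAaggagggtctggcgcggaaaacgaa

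The letters searched on both strands were CCAAT for the box and TTTGAA, with its variants TTCGAA and also TTTAAA, for the homology region. In MKI67 and CDCA8 a homology region ends in the bases that begin an ATTGG, so the 2 motifs overlap there. In ESPL1 a single box begins 48 bases and a single homology region 31 bases before the start. Of the 34 mitosis genes with a promoter in the table, 27 (79.4%) held a CCAAT box, 25 (73.5%) a homology region and 22 (64.7%) both. Over all 27305 promoters of that length the shares were 33%, 23.1% and 8.21%, and over the 9031 tested genes with a promoter 35.4%, 15.7% and 6.2%. The CCAAT box was frequent in other lists too: of 17 sterol synthesis genes with a promoter, 15 (88.2%) held a CCAAT box, and of 37 DNA replication genes 19 (51.4%) did. Of those 37 also 19 (51.4%) held an E2F-like motif (the letters TTGGCGC, its variant TTCGCGC or its other variant TTCCCGC), against 9.51% of all promoters and 15.5% of those of tested genes, and 5 (13.5%) held a homology region. These are counts of letters in a fixed window and not sites of binding.

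DNA replication and nucleotide synthesis genes fell as well, but fewer of them. Of 39 tested, 17 fell and 1 rose (median -0.20), where 9.89% of all genes fell. All 39 had fallen from day 2 to day 4 (median -0.60), when 20% of all genes fell. MCM10, which starts the replication helicase, read 9.97, 9.97 and 9.93 on the day 4 arrays and 9.36, 9.42 and 9.10 on the day 6 arrays, a change of -0.66 ± 0.11 (adjusted p = 0.000353). MCM2, a helicase subunit, and CDC6, which loads the helicase at origins, fell by 0.56 ± 0.09 and 0.52 ± 0.08, and MCM10 was at -0.34 with probe sets averaged. Without replicate 3 the list had 12 falls and 0 rises, with only these 6 arrays it had 6 and 1, and 5 genes fell in all 4 fits. The late step was less negative than the early one for 17 of the 39 genes and more negative for 0, and for 10 of the 40 mitosis genes and 0. Over all genes 7.8% had a higher late step. Of 15 histone genes 6 fell, among them H2AX, the variant phosphorylated at DNA breaks, at -0.46 ± 0.06, and the H3K36 methyltransferase NSD2 fell by 0.60 ± 0.08 (adjusted p = 2.33e-05).

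Genes that p53 activates also fell. Of 18 tested p53 targets, 10 fell and 0 rose (median -0.32), where 9.89% of all genes fell. Without replicate 3 the counts were also 10 and 0, where 6.69% of all genes fell. With only these 6 arrays 3 fell, the same number that fell in all 4 fits. CDKN1A, the cyclin kinase inhibitor p21, read 9.36, 9.45 and 9.54 on the day 4 arrays and 8.50, 8.50 and 8.77 on the day 6 arrays, a fall of 0.86 ± 0.10 (adjusted p = 5.55e-06) after one of 0.78 ± 0.10 in the step before. DDB2, a DNA damage sensor of nucleotide repair, read 10.32, 10.42 and 10.39 on the day 4 arrays and 9.66, 9.60 and 9.87 on the day 6 arrays and fell by 0.67 ± 0.07 (adjusted p = 5.46e-06). SESN1, a stress-induced regulator of growth signaling, read 8.78, 8.76 and 8.78 on the day 4 arrays and 8.16, 8.15 and 8.40 on the day 6 arrays, a change of -0.53 ± 0.07 (adjusted p = 3.49e-05). In all 3 genes the day 6 arrays lay below those of day 4, and replicate 3 was the highest of day 6, so the falls were larger without it (-0.95, -0.75 and -0.62). The treated minus vehicle difference was -0.48 for CDKN1A, smaller than its treated change, and -0.80 for DDB2 and -0.54 for SESN1. In vehicle cultures 3 of the 18 targets fell and 2 rose over the same days. The death receptor FAS and the pore protein BAX fell by 1.15 ± 0.19 and 0.37 ± 0.07, and FAS was at -0.31 with probe sets averaged. PURPL, a long noncoding RNA that p53 induces, was among the largest falls of all genes, from 7.67, 7.70 and 7.59 to 6.34, 6.38 and 6.43 (-1.27 ± 0.18, adjusted p = 5.24e-05), while vehicle cultures gave 0.52. BCL2 family and apoptosis genes went both ways (3 rose and 2 fell of 20), with the death-promoting PMAIP1 at -0.64 and BAK1 at 0.37 and the protective BCL2L1 at 0.43. PMAIP1 and BCL2L1 were not called with probe sets averaged (adjusted p = 0.247 and 0.397).

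ALOX5, HES1, PIR, PDE4B and PRG2 had the largest rises. Among genes called with and without replicate 3, with arrays that do not overlap and a level of at least 6 in the higher group, ALOX5 came first. ALOX5, the lipoxygenase that starts leukotriene synthesis in neutrophils and monocytes, read 3.85, 3.82 and 4.06 on the day 4 arrays and 6.78, 7.15 and 7.19 on the day 6 arrays. It was at the lowest value, 2.19, in every vehicle group and on treated day 2, and rose 8.74-fold (3.13 ± 0.11, adjusted p = 1.07e-12), with a change of 0.79 when all its probe sets were averaged. HES1, a repressor induced by Notch, read 3.61, 3.88 and 3.37 on the day 4 arrays and 6.37, 6.61 and 6.14 on the day 6 arrays and rose 6.74-fold (2.75 ± 0.19, adjusted p = 1.15e-08). Another probe set of HES1, taken when no filter was set, gave 0.31 (adjusted p = 0.296), and the mean of its probe sets 1.02. JAG1, a Notch ligand, rose by 1.83 ± 0.33 from 5.28, 5.78 and 5.26 to 7.20, 7.27 and 7.34, or by 0.59 with probe sets averaged.

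PRG2, the major basic protein of eosinophil granules, read 3.63, 3.94 and 4.22 on the day 4 arrays and 6.80, 6.15 and 5.97 on the day 6 arrays. Its rise of 2.38 ± 0.15 (adjusted p = 3.8e-09) followed 0.28 ± 0.15 in the step before, a difference of 2.10 ± 0.26 between the steps (adjusted p = 4.69e-05). PDE4B, which degrades cyclic AMP, rose by 2.41 ± 0.23 from 6.95, 5.91 and 6.49 to 8.97, 9.10 and 8.49. AOC1, a histamine-degrading oxidase, and MARCKS, an actin and membrane organizer, rose by 2.24 ± 0.19 and 1.97 ± 0.23 and were at 2.19 in the vehicle groups of days 4 and 6. The complement component C3 read 4.11, 4.19 and 4.27 on the day 4 arrays and 6.08, 6.79 and 5.52 on the day 6 arrays (change 1.94 ± 0.29), while vehicle cultures went from 6.54, 6.50 and 6.77 to 5.95, 5.39 and 4.47 (-1.33 ± 0.29). ZNF366, a zinc finger factor of dendritic cells, and GPAT3, an enzyme of triglyceride synthesis, rose by 1.90 ± 0.16 and 1.82 ± 0.13, less than in the step before (3.73 and 2.88, from near the lowest value). Averaging probe sets gave smaller rises, PDE4B at 1.12, MARCKS at 1.30 and ZNF366 at 0.95. GPR183, a receptor for oxysterols that guides immune cells, rose by 1.52 ± 0.24.

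The largest falls were smaller than the largest rises. FAR2, which reduces fatty acids to alcohols, read 8.10, 8.09 and 7.95 on the day 4 arrays and 6.80, 6.76 and 6.59 on the day 6 arrays, a change of -1.33 ± 0.09 (adjusted p = 1.15e-08) after -0.78 in the step before. FAR2 was at -0.64 when its probe sets were averaged. PHACTR3, a regulator of protein phosphatase 1 and actin, fell by 1.31 ± 0.11 from 7.19, 6.99 and 6.99 to 5.87, 5.83 and 5.53. CD38, the NAD glycohydrolase on lymphoid and myeloid cells, read 6.26, 6.22 and 6.03 on the day 4 arrays and 5.12, 4.81 and 4.69 on the day 6 arrays and fell by 1.29 ± 0.12 (adjusted p = 8.64e-07), after 1.19 ± 0.12 in the step before. AK5, an adenylate kinase, had risen by 1.08 ± 0.21 to day 4 and then fell by 1.51 ± 0.21 (adjusted p = 4.72e-05), a reversal of -2.59 ± 0.36 (adjusted p = 0.00018). ZNF800, a zinc finger protein, was at -0.05 ± 0.20 in the step before and then fell by 1.56 ± 0.20, or by 0.40 with its probe sets averaged. PTPN3, a tyrosine phosphatase, TKTL1, a transketolase relative, and AGAP6 fell by 1.28 ± 0.18, 1.32 ± 0.22 and 1.30 ± 0.19 and were not called in all 4 fits. PTPN3 was at -0.66 with probe sets averaged.

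**Figure D2:**
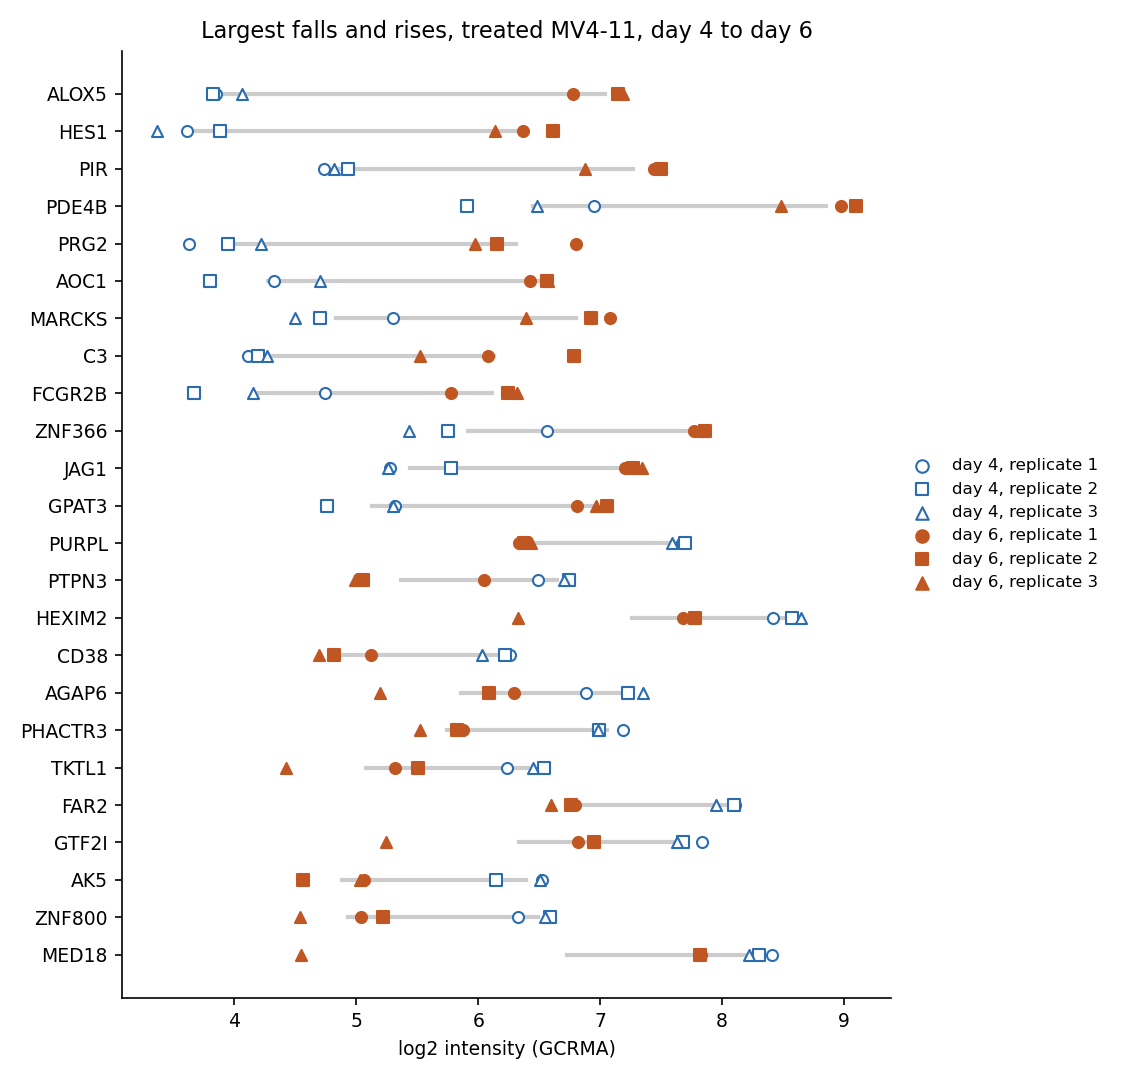
Log2 intensity of the 12 largest rises and 12 largest falls by treated array; open blue symbols are day 4, filled orange symbols are day 6, circles, squares and triangles are replicates 1, 2 and 3, and grey bars join the group means. The 2 days do not overlap in any of the 24 genes, which was a condition of the choice, and in MED18, GTF2I and HEXIM2 the triangle of day 6 replicate 3 lies far below the other day 6 arrays.

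Some of the falls rest largely on replicate 3. MED18, a subunit of the Mediator complex, read 8.41, 8.30 and 8.22 on the day 4 arrays and 7.83, 7.82 and 4.55 on the day 6 arrays. Its change of -1.58 ± 0.51 became -0.48 without that array (adjusted p = 0.00307), and its call was lost when any 1 day 4 array was left out (adjusted p = 0.0623 to 0.0799), with no filter, with the covariate and with only these 6 arrays. GTF2I, a general transcription factor, went from -1.37 to -0.83, HEXIM2, an inhibitor of the elongation kinase P-TEFb, from -1.29 to -0.82, and EIF5A, a translation factor, from -1.24 to -0.59. These 3 were called without replicate 3 but not with only the 6 arrays (adjusted p = 0.135, 0.115 and 0.21). Averaging probe sets put MED18 at -0.89, HEXIM2 at -0.60 and EIF5A at -0.43. The immediate early gene FOS went from -1.17 to -0.51 and was not called without that array (adjusted p = 0.192).

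**Figure D3:**
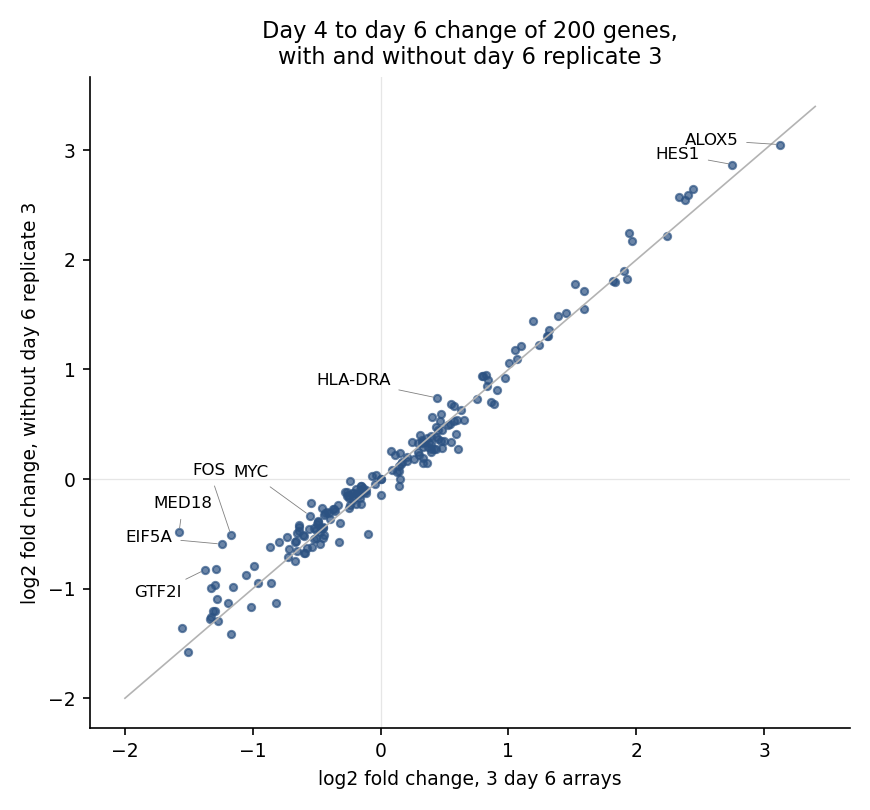
Day 4 to day 6 log2 fold change of the 200 genes chosen by the naming rule, from all 3 day 6 arrays (x axis) and without day 6 replicate 3 (y axis); the grey line marks equal values. Large rises such as ALOX5 (3.13 and 3.05) stay near the line, while MED18 (-1.58 and -0.48), EIF5A (-1.24 and -0.59) and FOS (-1.17 and -0.51) lie above it.

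MHC class II genes rose again, by less than in the step before. Of 9 tested MHC class II presentation genes, 6 rose and 0 fell (median 0.55), where 14% of all genes rose. All 9 had risen in the step before (median 1.77), when 18.6% of all genes rose. Of the 9, 7 had a late step lower than the early one and 0 higher, where 5.81% of all genes had a lower late step. HLA-DPA1 and HLA-DPB1, the 2 chains of the DP peptide receptor, are examples. HLA-DPA1 read 12.41, 12.22 and 12.30 on the day 4 arrays and 13.33, 13.40 and 13.21 on the day 6 arrays, and HLA-DPB1 read 10.20, 10.39 and 10.35 on the day 4 arrays and 11.77, 11.84 and 11.49 on the day 6 arrays. Their groups did not overlap, and they rose by 1.00 ± 0.10 (adjusted p = 1.36e-06) and 1.39 ± 0.24 (adjusted p = 0.000468), against 2.99 and 3.79 in the step before, with HLA-DPB1 at 0.79 when its probe sets were averaged. HLA-DQB1 and HLA-DMA, which helps load peptides, rose by 0.82 ± 0.18 and 0.55 ± 0.14. HLA-DRA depended on replicate 3: it read 12.78, 12.71 and 12.85 on the day 4 arrays and 13.43, 13.61 and 12.64 on the day 6 arrays, with a change of 0.45 ± 0.18 that was not called (adjusted p = 0.0805) and of 0.74 without that array (adjusted p = 0.00126). The list count stayed at 6 without replicate 3 and with the covariate, was 4 to 6 when any 1 array was left out, and 3 genes were called in all 4 fits. MHC class I presentation genes went both ways: 2 rose and 2 fell of 15 (median -0.05), 1 and 1 without replicate 3, and 0 in all 4 fits.

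Some neutrophil genes rose as well. Of 9 tested members of the neutrophil maturation list, 5 rose and 0 fell (median 0.59), where 14% of all genes rose. In each fit that left out 1 array 5 rose. S100A8 and S100A9 form calprotectin, the abundant calcium-binding protein of neutrophils and monocytes. S100A8 read 9.29, 9.38 and 9.56 on the day 4 arrays and 11.21, 11.05 and 10.76 on the day 6 arrays, a rise of 1.59 ± 0.11 (adjusted p = 2.39e-08), and S100A9 read 5.50, 5.58 and 6.03 on the day 4 arrays and 7.39, 6.62 and 7.03 on the day 6 arrays, a rise of 1.31 ± 0.19 (adjusted p = 7.85e-05). Both groups were fully separate in both genes, and S100A8 also rose in vehicle cultures, by 0.96 ± 0.11. MCEMP1, a membrane protein of mast cells and monocytes, rose by 0.83 ± 0.14 after -0.50 ± 0.14 in the step before, and the gelatinase MMP9 rose by 0.59 ± 0.10 at a low level (3.57 to 4.17). Of the 13 untested members, none had a probe set above 4.39 on these 6 arrays.

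Granule proteases and lysozyme rose by smaller amounts from high levels. Of 13 primary granule genes, 6 rose and 1 fell (median 0.19), or 7 and 0 without replicate 3. LYZ, lysozyme, read 14.48, 14.38 and 14.21 on the day 4 arrays and 14.78, 15.19 and 14.99 on the day 6 arrays and rose by 0.63 ± 0.11 (adjusted p = 0.000482). Cathepsin G (CTSG) and neutrophil elastase (ELANE) rose by 0.43 ± 0.07 and 0.29 ± 0.05. MPO, myeloperoxidase, was not called: it read 7.15, 7.06 and 7.18 on the day 4 arrays and 6.97, 7.00 and 7.41 on the day 6 arrays, with groups that overlap and a change of 0.00 ± 0.20 (adjusted p = 1). Of 5 phagocyte NADPH oxidase subunits, 0 rose and 1 fell.

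Monocyte and macrophage genes gave a mixed picture. Of 27 listed, 16 were tested, 4 rose and 0 fell (median 0.07), where 14% of all genes rose, against 9 rises in the step before, and the count was 2 to 3 when any 1 array was left out. CSF1R, the receptor for macrophage colony-stimulating factor, read 10.57, 10.59 and 10.59 on the day 4 arrays and 10.98, 11.09 and 11.02 on the day 6 arrays and rose by 0.45 ± 0.09 (adjusted p = 0.00205). CCR2 and MS4A7 also passed, at 0.24 and 0.33, but with their probe sets averaged the changes were -0.19 and -0.21. The monocyte co-receptor CD14 was at 2.19 on all 6 arrays, as on every other array used here. ITGAM, the CD11b integrin chain of mature myeloid cells, was at -0.45 ± 0.29 (adjusted p = 0.276), after a rise of 1.14 ± 0.29 in the step before, and its partner ITGB2 fell by 0.65 ± 0.10 (adjusted p = 0.000217). PECAM1, an adhesion molecule of leukocytes and endothelium, rose by 0.59 ± 0.11, but not with probe sets averaged (0.06, adjusted p = 0.687).

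Receptors for antibodies, lipids and sugars changed in both directions. Of 23 tested Fc, Siglec, LILR and lectin receptors, 10 rose and 3 fell (median 0.11), or 8 and 2 without replicate 3. FCGRT, the neonatal Fc receptor that recycles IgG, read 9.86, 9.93 and 9.88 on the day 4 arrays and 11.04, 11.18 and 10.74 on the day 6 arrays and rose by 1.10 ± 0.10 (adjusted p = 3.54e-07). TREM2, a lipid-sensing receptor of macrophages, read 7.64, 7.17 and 7.36 on the day 4 arrays and 8.68, 8.54 and 8.66 on the day 6 arrays. It had fallen by 0.85 ± 0.18 to day 4 and then rose by 1.24 ± 0.18 (adjusted p = 6.62e-05), so the steps differed by 2.09 ± 0.31 (adjusted p = 0.000268). FCGR2B, the inhibitory receptor for IgG, read 4.75, 3.67 and 4.15 on the day 4 arrays and 5.77, 6.25 and 6.32 on the day 6 arrays and rose by 1.93 ± 0.23, and LILRA1, an activating leukocyte immunoglobulin-like receptor, fell by 0.52 ± 0.06.

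Of 27 tested cytokine receptors, 6 rose and 3 fell, where 14% of all genes rose and 9.89% fell. IL7R, the interleukin 7 receptor chain, read 4.00, 3.74 and 4.14 on the day 4 arrays and 5.45, 5.19 and 5.19 on the day 6 arrays, a rise of 1.32 ± 0.13 (adjusted p = 1.13e-06) after a fall of 0.89 ± 0.13. IL2RG, the common gamma chain it pairs with, did the reverse: it read 8.38, 8.47 and 8.39 on the day 4 arrays and 7.36, 7.20 and 7.09 on the day 6 arrays, a fall of 1.20 ± 0.16 (adjusted p = 3.65e-05) after a rise of 0.74 ± 0.16. The differences between late and early step were 2.21 ± 0.22 (adjusted p = 7.08e-06) and -1.94 ± 0.28 (adjusted p = 0.000224). TNFRSF1B, a tumor necrosis factor receptor, rose by 0.44 ± 0.07 and the chemokine receptor CCR1 fell by 0.39 ± 0.08. When probe sets were averaged IL7R was at 0.78, and CCR1 was not called (-0.24, adjusted p = 0.0709). KIT, the stem cell factor receptor, had risen by 1.10 ± 0.10 to day 4 and was then at -0.04 ± 0.10 (adjusted p = 0.824).

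Of 20 tested myeloid transcription factors, 3 rose and 2 fell, close to the shares of all genes (14% and 9.89%). Without replicate 3 the counts were 2 and 0, where 9.43% and 6.69% of all genes were called. KLF4, which promotes monocyte differentiation, read 6.32, 5.80 and 6.09 on the day 4 arrays and 7.14, 7.18 and 7.08 on the day 6 arrays. It rose only in the late step, by 1.06 ± 0.18 (adjusted p = 0.000345) after -0.08 ± 0.18, a difference of 1.15 ± 0.31 (adjusted p = 0.0194). Its probe sets averaged 0.58. BCL6, a repressor in germinal center B cells and myeloid cells, rose by 0.80 ± 0.19. TCF4, a factor of plasmacytoid dendritic and B cells, read 11.05, 11.11 and 11.00 on the day 4 arrays and 11.84, 11.89 and 12.17 on the day 6 arrays and rose by 0.91 ± 0.10 (adjusted p = 2.76e-06), with 0.49 ± 0.10 in vehicle cultures. F13A1, the clot-stabilizing transglutaminase chain that monocytes and platelets make, rose by 0.80 ± 0.19 after 2.47 ± 0.19.

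Lysosome genes rose, and their regulator among them. Of 23 tested, 13 rose and 1 fell (median 0.30), where 14% of all genes rose. The counts were 9 and 1 without replicate 3, where 9.43% of all genes rose, and 7 and 0 with only these 6 arrays. When any 1 array was left out 9 to 12 rose. TFEB, the transcription factor that activates lysosome genes, read 8.71, 8.71 and 8.74 on the day 4 arrays and 9.38, 9.44 and 10.01 on the day 6 arrays. It rose by 0.89 ± 0.11 (adjusted p = 2.08e-05), or 0.69 without replicate 3, its highest array. PSAP, the precursor of the saposins that help degrade sphingolipids, read 12.46, 12.44 and 12.46 on the day 4 arrays and 12.94, 12.96 and 13.05 on the day 6 arrays and rose by 0.52 ± 0.07 (adjusted p = 3.8e-05), while it fell by 0.59 ± 0.07 in vehicle cultures. The mannosidase MAN2B1 and the membrane protein LAMP2 rose by 0.38 ± 0.06 and 0.39 ± 0.07. Of the 23 genes 6 rose in all 4 fits, and 7 fell and 0 rose in vehicle cultures between the same days.

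Antioxidant genes under the transcription factor NRF2 rose in the late step. Of 15 tested, 6 rose and 0 fell (median 0.12), where 14% of all genes rose. Without replicate 3 the counts were 9 and 0 (median 0.24), where 9.43% of all genes rose. From day 2 to day 4 there had been 0 rises and 1 fall. The late step was higher than the early one for 3 of the 15 and lower for 0, where 7.8% of all genes had a higher late step. NQO1, a quinone reductase and a usual readout of NRF2, read 8.85, 9.05 and 9.07 on the day 4 arrays and 10.39, 10.47 and 9.66 on the day 6 arrays. All day 6 arrays were above day 4, with replicate 3 the lowest, and the rise was 1.19 ± 0.17 (adjusted p = 6.84e-05), or 1.45 without it. The step before had given -0.31 ± 0.17, a difference of 1.50 ± 0.29 (adjusted p = 0.00265). GCLC, the rate-limiting subunit of glutathione synthesis, read 7.45, 7.52 and 7.43 on the day 4 arrays and 8.03, 7.97 and 7.80 on the day 6 arrays and rose by 0.47 ± 0.09 (adjusted p = 0.000841). SLC7A11, which imports cystine for glutathione and also answers to ATF4, read 5.61, 5.50 and 5.78 on the day 4 arrays and 7.08, 7.29 and 7.29 on the day 6 arrays, a rise of 1.59 ± 0.31 (adjusted p = 0.00124), while vehicle cultures went from 8.71, 8.61 and 9.03 to 8.29, 7.62 and 6.53. GCLC was at 0.27 and SLC7A11 at 0.92 with probe sets averaged. PIR, an iron-binding nuclear protein that NRF2 induces, was not on the list and was among the largest rises of all genes: it read 4.74, 4.93 and 4.81 on the day 4 arrays and 7.44, 7.50 and 6.87 on the day 6 arrays, a 5.45-fold rise (2.45 ± 0.22, adjusted p = 3.65e-07) after 0.15 ± 0.22.

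Some heme and iron genes rose as well. Of 19 tested iron and heme genes, 5 rose and 0 fell (median 0.12), where 14% of all genes rose. Without replicate 3 the count was 3, where 9.43% of all genes rose, and it was 3 to 4 when any 1 array was left out. HMOX1 had the highest change in this list and also counts in the antioxidant list. HMOX1, the heme oxygenase that opens the heme ring, was at 2.19 on the 3 day 4 arrays and read 4.77, 4.74 and 4.05 on day 6, a change of 2.33 ± 0.21 against the lowest value (adjusted p = 4.53e-07), which is no measure of the true fold. In vehicle cultures it went the other way, from 6.18, 4.97 and 5.04 to 2.19. SLC48A1, which carries heme out of the lysosome, read 7.07, 6.73 and 7.42 on the day 4 arrays and 8.52, 8.65 and 8.40 on the day 6 arrays and rose by 1.45 ± 0.14 (adjusted p = 7.66e-07), with -0.03 ± 0.14 in vehicle cultures. SLC40A1, the iron exporter ferroportin, read 5.75, 5.24 and 5.48 on the day 4 arrays and 6.16, 6.67 and 6.57 on the day 6 arrays and rose by 0.98 ± 0.11 (adjusted p = 4.25e-06), after 3.23 ± 0.11 from near the lowest value in the step before, and was at 0.45 with probe sets averaged. HMOX1, SLC48A1 and SLC40A1 were called in all 4 fits.

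**Figure D4:**
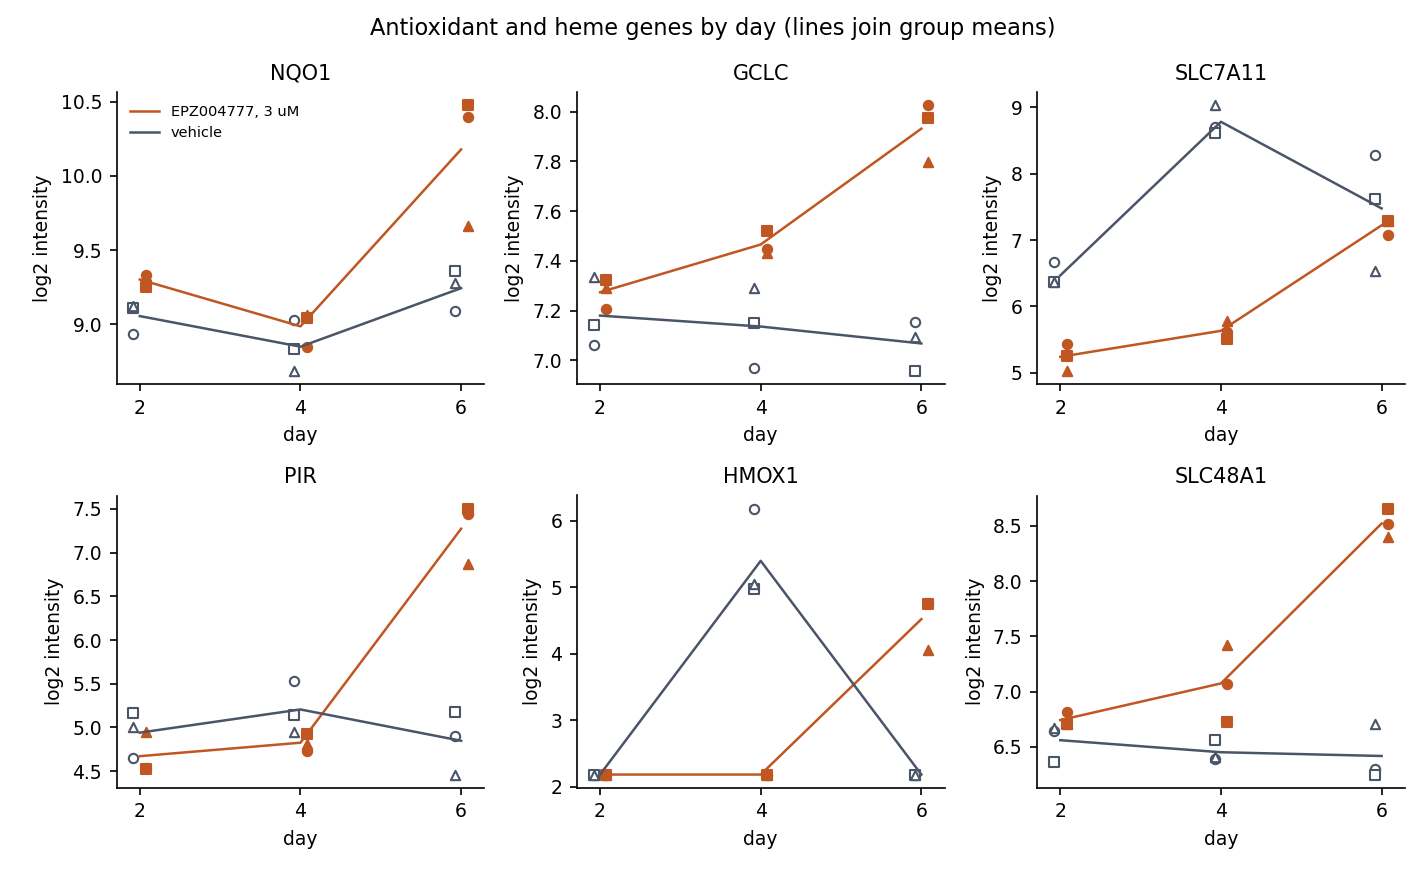
Log2 intensity of NQO1, GCLC, SLC7A11, PIR, HMOX1 and SLC48A1 by day; filled orange symbols are cultures with 3 uM EPZ004777, open grey symbols are vehicle, circles, squares and triangles are replicates 1, 2 and 3, and lines join group means. Under the inhibitor NQO1, PIR and HMOX1 were not called between days 2 and 4 and were higher on all 3 arrays of day 6, HMOX1 and SLC7A11 peaked on day 4 in vehicle cultures, and the y axes differ and do not start at 0.

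More lipid and sterol genes fell than rose. SREBF1, the transcription factor that drives fatty acid and sterol synthesis genes, read 9.04, 9.07 and 9.33 on the day 4 arrays and 7.84, 7.62 and 8.45 on the day 6 arrays, and SCD, the desaturase it activates, read 11.93, 11.66 and 11.63 on the day 4 arrays and 11.08, 11.05 and 11.29 on the day 6 arrays. The groups were separate in both, and they fell by 1.17 ± 0.15 (adjusted p = 2.17e-05) and 0.60 ± 0.08 (adjusted p = 4.96e-05), after -0.61 and -0.68 in the step before. With probe sets averaged the changes were -0.56 and -1.29. Of 14 lipid uptake, storage and LXR target genes, 4 fell and 2 rose, with the lipoprotein APOC1 at 0.54 ± 0.10. Of 18 sterol synthesis genes, 6 fell and 1 rose (median -0.12), 3 and 1 without replicate 3 and 3 to 8 falls when any 1 array was left out (1 fall with only these 6 arrays), after 14 falls in the step before (median -0.57). DHCR7, which makes cholesterol in the last step, read 7.32, 6.61 and 6.96 on the day 4 arrays and 5.87, 6.15 and 5.99 on the day 6 arrays and fell by 0.96 ± 0.14 (adjusted p = 7.54e-05). STARD4, a sterol carrier, and LSS, lanosterol synthase, fell by 0.87 ± 0.18 and 0.58 ± 0.11, and NSDHL, a later enzyme of the pathway, rose by 0.45 ± 0.08, but not with probe sets averaged (0.19, adjusted p = 0.118). In vehicle cultures 8 of the 18 fell and 1 rose over the same days.

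Signaling and stress lists were mostly quiet. DUSP5, a phosphatase that ERK induces and that shuts ERK off, read 6.46, 5.82 and 5.72 on the day 4 arrays and 4.94, 4.53 and 4.54 on the day 6 arrays and fell by 1.32 ± 0.18 (adjusted p = 4.88e-05), and it also fell in vehicle cultures (-0.92 ± 0.18). Of 17 EGR and ERK feedback genes 2 fell and 0 rose, against 9 falls in the step before. The chemokine CXCL8 read 7.52, 7.40 and 7.58 on the day 4 arrays and 8.58, 8.78 and 8.30 on the day 6 arrays, a rise of 1.05 ± 0.27 (adjusted p = 0.00895) that was not called with its probe sets averaged (0.80, adjusted p = 0.0985), while it fell by 2.34 ± 0.27 in vehicle cultures. NFKBIE and NFKBIA, inhibitors that NF-kappaB induces, rose by 0.36 ± 0.07 and 0.42 ± 0.10, and they were the members of 13 NF-kappaB feedback genes that changed, with NFKBIA at 0.21 when its probe sets were averaged. Of 22 interferon-stimulated genes 0 rose and 0 fell (median 0.00; 0 or 1 rose when any 1 array was left out and 2 with only these 6 arrays), whereas in vehicle cultures all 22 fell between the same days (median -2.41). Amino acid stress genes (1 rise of 25, SLC7A11), aminoacyl-tRNA synthetases (0 of 17 called), unfolded protein response genes (2 rises and 1 fall of 16), respiratory chain subunits (1 and 2 of 26) and glycolysis genes (3 and 2 of 26) had medians between -0.03 and 0.04.

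Changes at the inhibitor's target and its partners were small or not called. DOT1L itself read 8.23, 8.31 and 8.29 on the day 4 arrays and 8.45, 8.40 and 9.07 on the day 6 arrays, with replicate 3 far above the other arrays, a change of 0.36 ± 0.13 that was not called (adjusted p = 0.0539) and of 0.15 without that array (adjusted p = 0.359). MLL (KMT2A) was at -0.15 ± 0.08 (adjusted p = 0.188), and the AF4 gene AFF1 read 12.14, 12.12 and 12.07 on the day 4 arrays and 11.88, 11.86 and 11.86 on the day 6 arrays and fell by 0.24 ± 0.05 (adjusted p = 0.00159), and was at -0.04 with its probe sets averaged (adjusted p = 0.659). Of 22 DOT1L and elongation complex genes, 6 fell and 1 rose. MLLT10, the DOT1L cofactor AF10, and HEXIM1, an inhibitor of elongation, fell by 0.35 ± 0.07 and 0.42 ± 0.07, and MLLT6, a relative of AF10, rose by 0.49 ± 0.09. Of 30 other histone methyltransferases and demethylases, 4 rose and 3 fell, or 1 and 2 without replicate 3. EZH2, which methylates H3K27, fell by 0.45 ± 0.08 and the H3K9 demethylase KDM4B rose by 0.55 ± 0.12. With probe sets averaged MLLT6 was at 0.20, and HEXIM1 and KDM4B were not called (adjusted p = 0.0757 and 0.273).

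Markers of other lineages, and B-lymphoid markers, a lineage that the label names, were partly at the lowest value and partly measured. On these 6 arrays the B-cell marker MS4A1, the T-cell marker CD3E, the platelet chemokine PF4, the mast cell protease CPA3 and the epithelial marker EPCAM were at 2.19, and the untested markers of 7 such lists reached at most 4.04, which the filter on level in part sets. The tested members ranged from low to high, where the median of all tested genes was 9.16 to 9.21 per array. Their median level was 8.90 to 9.03 for dendritic cell, 8.46 to 8.70 for megakaryocyte and 6.73 to 7.29 for fibroblast and epithelial markers. For T and NK cell markers it was 6.56 to 6.88, the middle of 2 genes. With NKG7 at 10.99 on day 4, the other lay far below. Medians closer to the filter at 4 were 4.91 to 5.28 for B-lymphoid and 4.78 to 4.92 for erythroid markers. Mast cell, basophil and eosinophil markers were also close to it, at 4.32 to 5.67. Of 6 tested B-lymphoid markers 0 rose and 0 fell, with a summed intensity of 1166 to 1290 on day 4 and 1008 to 1371 on day 6. T and NK cell markers gave 1 rise of 2 (NKG7, a granule protein, 0.31; summed intensity 1954 to 2137 and 2238 to 2760) and erythroid markers 1 fall of 3 (EPOR, -0.54, not called without replicate 3; 200 to 239 and 125 to 200). The megakaryocyte list held 1 rise of 3, F13A1 (1766 to 1833 and 2363 to 3061). Mast cell, basophil and eosinophil markers gave 1 rise and 1 fall of 4, PRG2 and the IgE receptor chain FCER1A at -0.73 (141 to 182 and 170 to 198), and dendritic cell markers 1 rise, TCF4, and 3 falls of 9, the actin bundler FSCN1 among them at -0.59 (15608 to 15751 and 17403 to 17979). Fibroblast and epithelial markers gave 1 rise of 3, KRT8 at 0.29, which was not called without replicate 3 (430 to 512 and 475 to 544). With probe sets averaged FCER1A was at -0.36, EPOR at -0.28 and FSCN1 at -0.21 (adjusted p = 0.152 for FSCN1). The B and myelomonocytic lineages of the label were themselves marked in part. Of 15 B-lymphoid markers 9 were not tested, and the 8 of these with a probe set reached at most 3.19 on these 6 arrays. The 6 tested had the low median level given above. The median level of the tested primary granule genes was 13.90 to 14.27 and that of the tested monocyte and macrophage genes 9.55 to 9.85, while CD14, FCGR1A, CD163, MRC1, C1QA and FCN1 of monocytes and macrophages and S100A12, LTF, MMP8 and CEACAM8 of neutrophils were at 2.19. The part of the moving markers in the other results was not tested.

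Set beside the step from day 2 to day 4, which has the same length and shares the day 4 arrays, the late step held fewer called genes. The early step had 2044 rises and 2197 falls (18.6% and 20% of the genes, 38.7% together), 274 of them at least 2-fold. The test of the difference between the steps called 1493 genes (13.6%), 856 with a higher and 637 with a lower late step (7.8% and 5.81%), and this count fell to 845, 662 or 920 when day 4 replicate 1, 2 or 3 was left out. Among named genes the late step was clearly lower for AK5, RASGRP4, a guanine nucleotide exchange factor for Ras (1.19, then -1.02), and GASK1B, a Golgi kinase relative (3.91, then 1.30), with late changes of -0.51 and 0.75 for these 2 when probe sets were averaged. It was clearly higher for PIR, HMOX1, IL7R, PRG2 and TREM2.

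**Figure D5:**
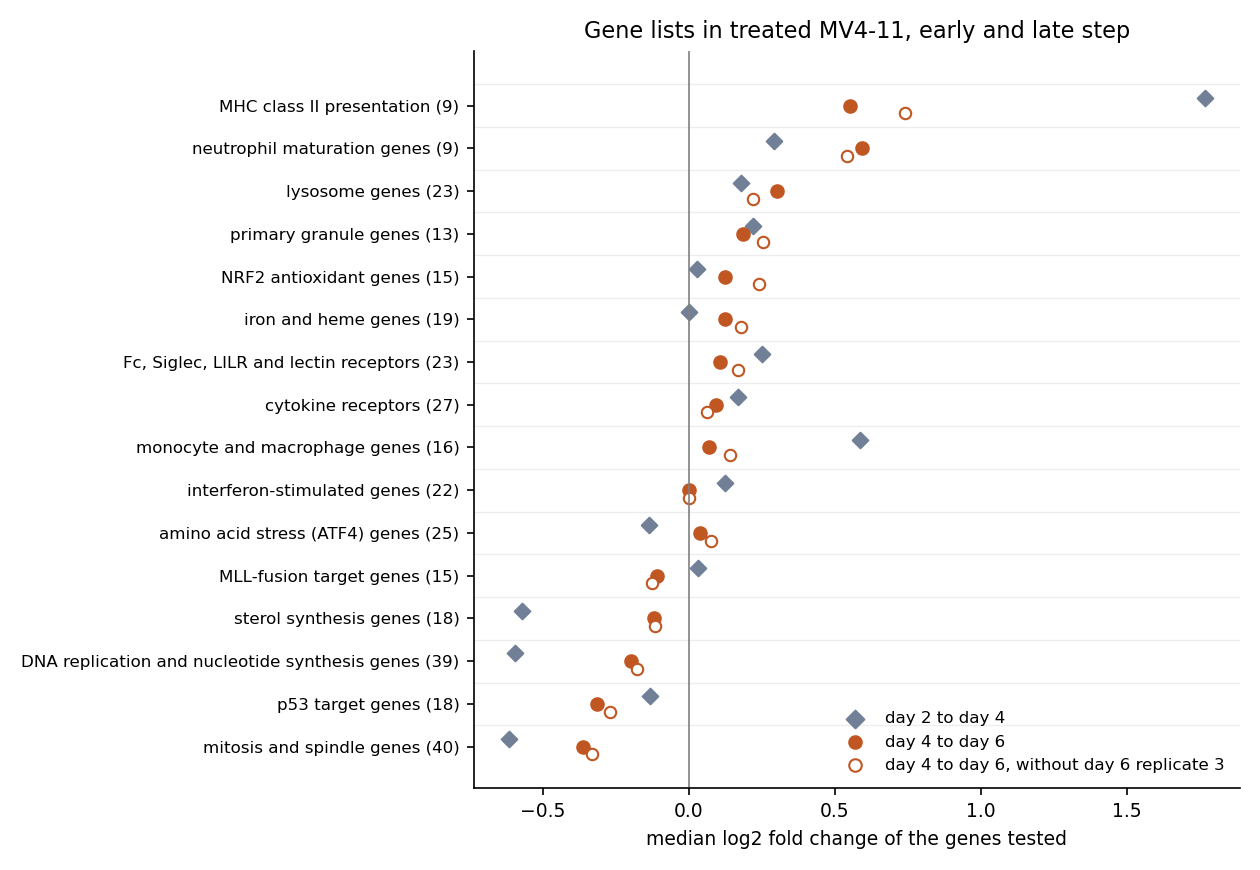
Median log2 fold change of the tested genes of 16 lists in treated MV4-11 cells; grey diamonds are day 2 to day 4, filled orange circles are day 4 to day 6, open circles are day 4 to day 6 without day 6 replicate 3, and the number of tested genes stands beside each name. MHC class II genes moved from 1.77 to 0.55, mitosis genes from -0.62 to -0.36 and p53 targets from -0.13 to -0.32, and leaving out the array moved the medians shown by less than 0.20.

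Vehicle cultures also changed between day 4 and day 6, with 1087 genes higher and 1023 lower (9.91% and 9.32%, 19.2% together), and these share no array with the treated ones. Of the genes called in both, 226 moved the same way and 329 the opposite way. The count of 2110 fell to 1096, 1311 or 1285 without vehicle day 4 replicate 3, day 6 replicate 2 or day 6 replicate 3. The treated change differed from the vehicle change for 2824 genes (25.7%), more positive for 1522 (13.9%) and more negative for 1302 (11.9%), a balance that turned to 1265 and 1546 after another quantile normalization, 1263 and 1710 with a common median and 1162 and 1774 with probe sets averaged. Of these genes 1519 had also changed the same way in treated cultures. The day 4 vehicle arrays weigh on this test: with vehicle day 2 in their place 1136 genes were called, and 123 genes changed between vehicle days 2 and 6. The vehicle change then runs from day 2 to day 6, a longer interval than the treated step, so the 2 tests are not like for like. With that other baseline, 664 of the 10971 genes had a more positive and 472 a more negative change under the inhibitor. More negative were 17 of 40 mitosis genes, 8 of 18 p53 targets and 6 of 15 MLL-fusion targets. So were 8 of 18 sterol synthesis and 7 of 39 DNA replication genes. More positive were 5 of 15 antioxidant genes, with 0 in the opposite direction in each of these lists, while 0 of 9 MHC class II genes were called. With vehicle day 4, 33 mitosis, 8 p53 target, 4 MLL-fusion target and 22 DNA replication genes were more negative and 0, 1, 0 and 0 more positive. Sterol synthesis genes then gave 3 more positive and 1 more negative, and antioxidant genes 6 and 0.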

How the data were processed

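Each of the 24 arrays holds 54675 probe sets, read from total RNA as biotin-labelled antisense RNA. The deposited values are linear intensities, 1 column per array, normalized by the authors with GCRMA per the submitters' processing notes (version not given in the sources used here). GCRMA subtracts a modelled background and quantile-normalizes, so low values pile up at 1 floor and a change from it depends on that model.

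Their log2 was taken with no pseudocount. Of the probe sets, 41097 had 1 gene symbol, 1801 several and 11777 none in the platform annotation, and those with several or none, and 62 controls, were left out. Probe sets of at least 4 (log2) on at least 3 arrays were kept, and the brightest by its mean represented its gene, which left 10971 genes. limma 3.58.1 (R 4.3.3) fitted 8 group means over all 24 arrays, with p-values adjusted by Benjamini-Hochberg, and was tested on simulated data: for this comparison over 10971 genes, 69 of 100 genes changed by 0.5 (log2) and 95 of 100 changed by 1 were recovered, with 2 false calls. The simulated noise was independent between genes and had 1 spread per gene on all arrays. It held no deviating array like day 6 replicate 3, so the false calls do not measure the error rate of this comparison. Replicate numbers did not pair the samples.

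Genes were named by rule: the 12 largest rises and falls called with and without day 6 replicate 3, with arrays that do not overlap and a level of at least 6; up to 4 members per list by adjusted p; up to 6 each way by difference from vehicle and from the early step; and a fixed panel. The comparison and the 45 lists were chosen with earlier results of these data known. Counts with the covariate, the 6 arrays alone and other settings, and the promoter searches (RefSeq, GRCh38.p14), were computed as in the text. With 3 arrays a group, precision is limited by their number.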

Additional observations from a re-analysis of the deposited data

Results flagged for a closer look

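The change from day 4 to day 6 differed between treated and vehicle arrays, in the limma test of the difference itself, for 2824 genes, of which 88 are among the 120 genes named in the report. Genes were named in part by this difference and by the treated change within it, so 88 of 120 is no result about them. With vehicle day 2 in place of vehicle day 4, 65 of these 88 were called again with the same sign. That other test shares the treated arrays and the vehicle day 6 arrays, so it is not independent. Its vehicle interval, day 2 to day 6, is also longer than the treated step. Without day 6 replicate 3 the test with vehicle day 4 called 2368 genes. Those at least 2-fold more negative went from 81 to 41, and those at least 2-fold more positive from 290 to 272. The values of single genes below include that array, and the treated changes of GTF2I, EIF5A, MYC and DOT1L were smaller without it. Each value is the treated minus the vehicle change on the log2 scale, and values that involve the floor of 2.19, as in HMOX1, ALOX5 and AOC1, depend on the background model.

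Among the fusion targets, growth and elongation genes, the treated change was more negative for MYC -0.69, MEIS1 -0.57, MEF2C -0.57, EZH2 -0.56, SOCS2 -0.52, FLT3 -0.50, HEXIM1 -0.41, MLLT10 -0.39 and PBX3 -0.31. It was more positive for KDM4B 1.11, DOT1L 0.63 and MLLT6 0.57. Among the cell division and p53 target genes, the treated change was more negative for PURPL -1.78, FAS -1.64, MCM10 -1.02, CDCA8 -0.91, DDB2 -0.80, UBE2C -0.78, MCM2 -0.76, MKI67 -0.72, NSD2 -0.71, ESPL1 -0.69, SESN1 -0.54, CDC6 -0.53, CDKN1A -0.48, H2AX -0.47 and BAX -0.46. It was more positive for BCL2L1 0.47. Among the largest changes, the treated change was more negative for GTF2I -1.80, EIF5A -1.72, AK5 -1.65, ZNF800 -1.60, FAR2 -1.56, PHACTR3 -1.52, PTPN3 -1.23 and CD38 -0.91. It was more positive for HES1 4.66, C3 3.27, ALOX5 3.13, PDE4B 3.03, PRG2 2.33, AOC1 2.24, JAG1 2.17, MARCKS 1.97, ZNF366 1.90, GPAT3 1.84 and GASK1B 1.30. Among the antioxidant, heme and lipid genes, the treated change was more negative for SREBF1 -0.83. It was more positive for HMOX1 5.55, SLC7A11 2.90, PIR 2.80, SLC48A1 1.48, SLC40A1 0.98, APOC1 0.91, NQO1 0.80, GCLC 0.53 and NSDHL 0.45. Among the immune, lysosome, marker and signaling genes, the treated change was more negative for FCER1A -1.12, FSCN1 -0.84, IL2RG -0.77, LILRA1 -0.72 and ITGB2 -0.40. It was more positive for CXCL8 3.39, FCGR2B 2.05, MCEMP1 1.42, FCGRT 1.39, KLF4 1.21, TREM2 1.18, TFEB 1.13, PSAP 1.12, S100A9 1.12, NFKBIA 1.04, HLA-DPB1 1.00, IL7R 0.94, HLA-DPA1 0.94, PECAM1 0.90, BCL6 0.89, MS4A7 0.74, S100A8 0.64, CSF1R 0.63, MMP9 0.59, NFKBIE 0.53, TNFRSF1B 0.51, TCF4 0.42, NKG7 0.41, KRT8 0.40, LAMP2 0.32 and MAN2B1 0.31.

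The 23 genes not called again with vehicle day 2 in place of vehicle day 4 had these values against that baseline, and their calls depend on the vehicle day 4 arrays: EIF5A -1.25, HEXIM1 -0.29, H2AX -0.19, MS4A7 -0.09, APOC1 0.04, NKG7 0.09, CSF1R 0.14, PECAM1 0.20, KRT8 0.22, HLA-DPA1 0.23, LAMP2 0.27, NSDHL 0.30, NFKBIE 0.32, KLF4 0.36, KDM4B 0.37, BCL2L1 0.45, CXCL8 0.51, HLA-DPB1 0.52, MCEMP1 0.52, DOT1L 0.54, SLC7A11 0.58, BCL6 0.73 and C3 1.18. HMOX1 was called again, at 2.33 instead of 5.55.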

How the results depend on the processing

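For treated day 6 against day 4, 2626 genes were called at adjusted p under 0.05 and 4024 at unadjusted p under 0.05. The count was 861 with only the 6 arrays fitted, 1575 with the 3' to 5' gap as a covariate, 150 with a change of at least 2-fold, and 637 called in all 4 fits, an alternative added after seeing the data, as were the list counts in other fits and without single arrays. Leaving out 1 array gave 1762 to 2909 (1769 without day 6 replicate 3). No filter (2182), a filter at 6 (2582), a variance trend with robust fitting (2731), averaged probe sets (2717), another quantile normalization (2668) and a common median (2552) stayed within 1.5 times of the count. The fit with the replicate number as a block gave 2485 and changed 7 of 200 named calls; same-numbered samples had correlations of deviations of 0.059, -0.058 and 0.038 between the treated days, so the numbers do not pair the samples. For vehicle day 6 against day 4 the count was 133 at 2-fold and 1096 to 1787 without 1 array. For the treated minus vehicle difference it was 1497 with the covariate, 371 at 2-fold, 1136 with vehicle day 2 in place of day 4 and 2108 to 3164 without 1 array. The step from day 2 to day 4 had 274 genes at 2-fold and 3554 to 3743 without 1 array, and the late minus early difference 251 at 2-fold and 662 to 1570 without 1 array. With probe sets averaged, the changes of CCR2 (-0.19), MS4A7 (-0.21), RBL1 (-0.50), VARS1 (-0.80), ATP5PB (0.24), ITGB1 (-0.0395) and IPO8 (-0.37) turned their sign; the cause was not tested. Of the 200 named genes, 161 kept their call with the covariate, 127 with only the 6 arrays, 171 with averaged probe sets, 186 after another quantile normalization and 193 with the block. Values near 2.19 are limited by the background adjustment, so folds of genes that start there are not precise.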

Other observations

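Some further genes with large changes from day 4 to day 6 were chosen after their values were seen, so they are given as values of single genes and stand for no group. SPARC, a secreted matrix-binding protein, read 2.82, 3.10 and 3.05 on the day 4 arrays and 5.91, 5.95 and 5.60 on the day 6 arrays, a rise of 2.83 ± 0.23 in limma (adjusted p = 1.23e-07) from near the lowest value. MMP2, a gelatinase that cuts collagen, read 10.13, 10.13 and 10.23 on the day 4 arrays and 11.35, 11.40 and 11.37 on the day 6 arrays, a rise of 1.21 ± 0.09 (adjusted p = 5.1e-08), and the collagen chain COL6A1 rose by 1.29 ± 0.15 (adjusted p = 8.87e-06). In each of these 3 genes the days did not overlap, and with probe sets averaged the changes were 1.42, 0.40 and 0.19.

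LY96, the partner of the endotoxin receptor TLR4, rose by 1.81 ± 0.26, ADGRE1, an adhesion receptor of macrophages and eosinophils, by 1.51 ± 0.21, TMEM176A and TMEM176B by 2.15 ± 0.17 and 1.50 ± 0.21, and the bile acid receptor GPBAR1 by 2.53 ± 0.15. On the day 4 arrays ADGRE1 (3.38 to 3.67), TMEM176A (2.76 to 3.30) and GPBAR1 (3.13 to 3.94) were under the filter level of 4. In vehicle cultures LY96 changed by -1.87 ± 0.26, and ADGRE1, TMEM176A, TMEM176B and GPBAR1 by -0.04 to 0.07. The sodium-calcium exchanger SLC8A1 rose by 2.70 ± 0.21 from near the lowest value. With probe sets averaged TMEM176B was at 0.74 and SLC8A1 at 0.27. ALOX12, a platelet-type lipoxygenase, read 8.56, 8.72 and 8.63 on the day 4 arrays and 7.76, 7.54 and 7.67 on the day 6 arrays, a change of -0.98 ± 0.07 (adjusted p = 1.15e-08), and the cyclooxygenase PTGS1 read 8.31, 8.21 and 8.23 on the day 4 arrays and 7.15, 7.22 and 7.00 on the day 6 arrays, a change of -1.13 ± 0.09 (adjusted p = 1.23e-07), or -0.74 with probe sets averaged. ALOX12 and PTGS1 also fell in vehicle cultures, at -0.55 ± 0.07 and -0.43 ± 0.09 in limma (adjusted p = 2.73e-05 and 0.00344). The treated changes of all these further genes were called in all 4 fits.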
